A study of Mus musculus with 10 samples.

Results

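The genes described here are the neural cell adhesion molecules and catenins of the developing mouse neocortex, 44 of the 6147 genes in the deposited table. That table is a part of the transcriptome: its genes held between 68.9% and 71.7% of the TPM total in each library. Family counts and shares of all genes refer to the listed genes, which include no nectin. They were chosen by name: cadherins with a numbered symbol, protocadherins, alpha-, beta- and delta-catenins, and the Ncam, contactin, Cadm, nectin, Igsf and IgLON names, together with L1cam, Nrcam, Chl1, Nfasc and Thy1, leaving out Cdh5 and Ctnnbl1. The rule itself uses no measured value. The name pattern also took in Ctnnbip1, an inhibitor of beta-catenin, and the contactin-associated Cntnap2 and Cntnap4. By family there were 5 catenins, 7 cadherins, 7 protocadherins, 4 Cadm genes, 4 IgLON genes, 6 contactins and contactin-associated genes, 4 genes of the L1 family, 3 genes of the Ncam and Thy1 group, and 3 Igsf genes, with Ctnnbip1 on its own.

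The study measured polyadenylated RNA of neocortex lysates from CD1 wild-type mice, an outbred strain, with 4 groups of embryos, E12.5 (day of gestation), E14, E15.5 and finally E17, and 1 group taken on the day of birth, P0. All groups share the strain and carry no engineered allele or treatment, and they differ by stage. Each stage had 2 libraries, which the series describes as biological duplicates. Values are TPM, each gene's share of all transcripts on a fixed total, which take gene length into account. The lengths used were not given, so which of 2 genes is higher is less certain than the course of a single gene.

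Cadherins join neighbouring cells by binding the same cadherin on the other cell in the presence of calcium. Their cytoplasmic tail holds beta-catenin and a delta-catenin, and alpha-catenin links that complex to actin. Beta-catenin is also the transcriptional effector of canonical Wnt signalling. The immunoglobulin-domain molecules (Ncam, L1 family, contactins, IgLON and Cadm) work without calcium and are known for axon growth, bundling of axons and contact at synapses. In the embryonic neocortex, N-cadherin junctions hold the progenitors together at the ventricular surface, and migrating and differentiating neurons take up the immunoglobulin-domain molecules.

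The stretches before the start sites of 3 members are shown because these genes differ in course over the 5 stages: Ctnnb1, the beta-catenin gene, fell from E12.5 to P0, while Cntn1, a contactin, rose 12.3-fold and Cadm2, a synaptic adhesion gene, 9.18-fold. Each is the 250 bases upstream of a RefSeq start site on GRCm38.p6, written 5′ to 3′ on the gene's strand, and none overlaps an annotated exon in GENCODE. Capitals mark the dinucleotide CG, which reads the same on both strands. The windows are chr9:120933150-120933399 on the plus strand for Ctnnb1, chr15:92050915-92051164 on the plus strand for Cntn1 and chr16:67620909-67621158 on the minus strand for Cadm2.
Ctnnb1: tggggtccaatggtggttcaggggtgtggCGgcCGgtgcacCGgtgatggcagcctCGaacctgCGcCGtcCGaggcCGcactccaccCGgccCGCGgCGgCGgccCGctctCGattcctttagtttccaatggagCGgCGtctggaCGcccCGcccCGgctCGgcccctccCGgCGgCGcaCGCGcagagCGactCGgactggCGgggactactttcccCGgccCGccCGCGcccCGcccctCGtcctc
Cntn1: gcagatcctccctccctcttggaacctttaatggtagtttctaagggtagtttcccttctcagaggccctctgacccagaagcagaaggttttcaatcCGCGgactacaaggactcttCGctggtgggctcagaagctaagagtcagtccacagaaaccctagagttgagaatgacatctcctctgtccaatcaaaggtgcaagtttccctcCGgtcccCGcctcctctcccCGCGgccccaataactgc
Cadm2: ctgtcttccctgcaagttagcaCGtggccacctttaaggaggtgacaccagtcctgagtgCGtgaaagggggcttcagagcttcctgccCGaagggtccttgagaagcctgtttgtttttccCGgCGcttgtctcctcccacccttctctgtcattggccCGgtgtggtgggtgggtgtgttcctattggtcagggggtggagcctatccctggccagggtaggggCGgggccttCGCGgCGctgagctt

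The Ctnnb1 stretch held 35 CG dinucleotides, that of Cadm2 10 and that of Cntn1 7. These 3 do not stand for the direction of change. The window of Cadm4, which rose, held 30 CG, and that of Ncam2, not called over the span, held 32. Counts went from 2 to 30 in 33 windows of 25 members that rose (median 12). They went from 3 to 43 in 7 windows of only 4 members that fell (median 21). Windows of the same gene can overlap, as those of Ctnnb1 do. RefSeq windows were matched for 33 of the 44 members (45 windows, since some genes have several starts). Every member window held at least 1 CG, against 99.2% of 6165 windows of the genes tested and 92.1% of all 32851 RefSeq windows. The median number of CG per window was 12 over member windows, 17 over the genes tested and 6 over all RefSeq windows. These counts describe the windows and say nothing of a factor or of methylation.

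Before the results, the libraries and the tissue were checked. Markers of the dorsal forebrain were present in every library, with Tbr1 between 69.3 and 159 TPM, Emx1 between 51.01 and 177 TPM and Neurod2 between 246 and 657 TPM. The libraries at E12.5 and E14 also held RNA of neighbouring tissues: Ttr and Clic6, markers of choroid plexus, summed to between 303 and 1517 TPM there and to between 3.06 and 5.26 TPM at the later stages. Embryonic globins (Hbb-y and Hbb-bh1) summed to between 1878 and 4490 TPM at E12.5 and E14 and to between 1.88 and 9.12 TPM later, with Hbb-bh1 listed at 0 in both P0 libraries. The 5 measured meningeal markers summed to between 106 and 173 TPM at E12.5 and E14 and to between 2.22 and 6.63 TPM later. The E17 libraries stood apart: the log2 difference between replicates had an SD of 0.285 over the genes tested, against 0.088 to 0.176 at the other stages, and 40 of 44 members were higher in E17 replicate 1. Over 6048 genes the difference between replicates had a Pearson correlation with log2 gene length of 0.454 at E17, -0.397 at P0, -0.274 at E14, -0.12 at E12.5 and 0.034 at E15.5. Over the 44 members it was 0.081 at E17, -0.447 at P0, -0.511 at E14, 0.291 at E12.5 and 0.051 at E15.5. These are descriptions across genes that share the same libraries, and members are longer than most genes, with a median of 8575 exonic bases against 5037.

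Members were tested with the rest of the table by limma on log2(TPM + 1), and a gene was called at a Benjamini-Hochberg adjusted p under 0.05 over the 6048 genes whose mean reached 1 TPM. All 44 members passed that filter. Over the 5 stages 43 of 44 members were called by the F test, against a background of 82.9% of all genes tested, and Cdh6 was not (adjusted p = 0.0905, limma). From E12.5 to P0, 31 members rose, against 27.1% of all genes, and 6 fell, against 51.0%. The median change was 0.96 for members and -0.27 for all genes on the log2 scale. Because TPM share a fixed total, the member changes can also be read from that lower median: with median-of-ratios scaling the all-gene median was -0.01, the member median 1.22, and 33 members were higher and 6 lower.

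Stage by stage, the rise of the adhesion genes was spread over the middle of the series. From E12.5 to E14, 7 members rose (3.95% of all genes did) and 0 fell (4.78% of all genes), and at an unadjusted p under 0.05 limma gave 12 higher and 3 lower members. With array weights the counts were 19 higher and 7 lower members, against 845 and 1566 of all 6048 genes. With only the libraries compared they were again 19 and 7, against 850 and 1629 of all genes. From E14 to E15.5, 26 members rose, against 18.4% of genes, and 5 fell, against 33.3%. From E15.5 to E17, 31 members rose, against 14.4%, and 2 fell, against 10.6%. From E17 to P0 the count turned, with 20 members falling, against 28.8% of genes, and 7 rising, against 12.9%. Summed over all 44 members, the level was 2485 and 2588 TPM at E12.5, 2668 and 2677 at E14, 3451 and 3411 at E15.5, 4996 and 4092 at E17, and 4047 and 3966 at P0.

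Counts that involve E17 depend on its libraries. Without E17 replicate 1, 27 members were higher and 4 lower from E15.5 to E17, and 9 were higher and 14 lower from E17 to P0. Values corrected for gene length were an alternative chosen after the data were seen. With them 14 members were higher and 14 lower from E17 to P0, against 1463 and 1290 of all 6048 genes. The member median moved from -0.26 to -0.06. The span from E12.5 to P0 shares its estimate of the spread with E17. Whether Cdh4, Cntn2, Nfasc and Pcdhgc3 were called lower and Cntnap4 higher over the span depended on keeping both E17 libraries.

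**Figure D1:**
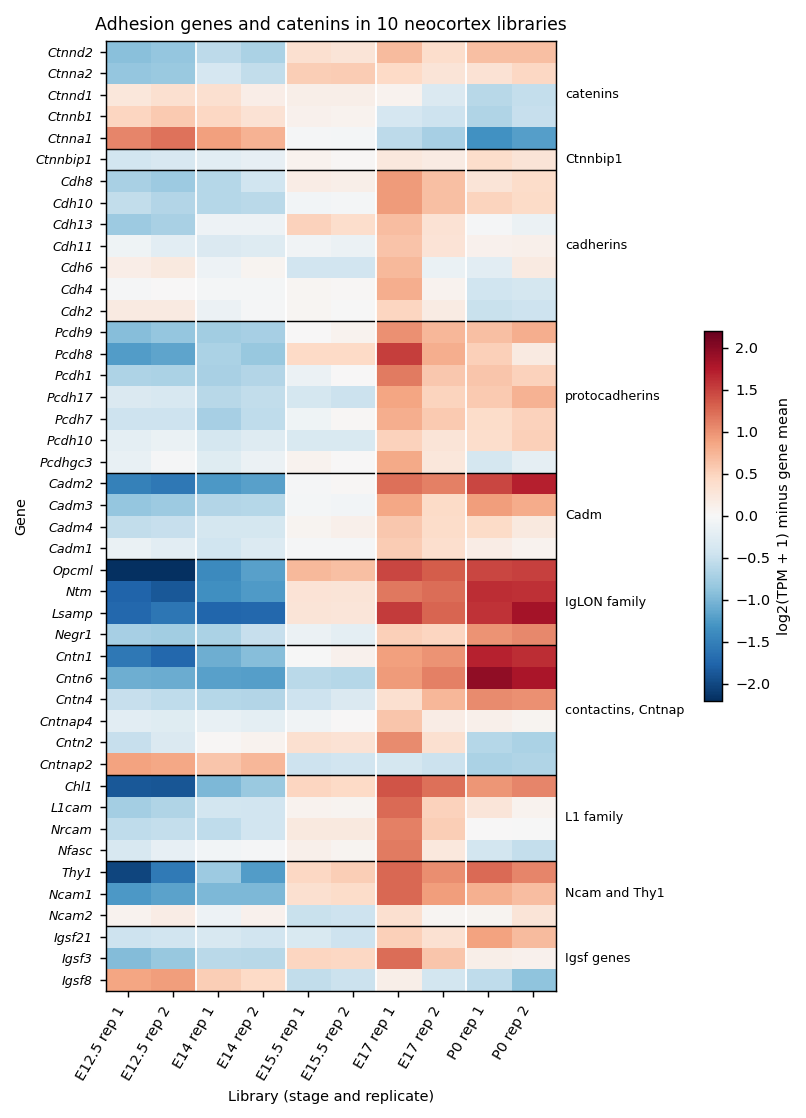
Level of each of the 44 members (rows, grouped by family) in the 10 libraries (columns, by stage and replicate), as log2(TPM + 1) minus the gene's own mean over the libraries, with red above and blue below that mean; the color scale ends at 2.2 on either side. The IgLON genes, Chl1, Thy1, Cntn1 and Cadm2 go from blue to red, Ctnna1, Ctnnb1, Cntnap2 and Igsf8 go from red to blue, and E17 replicate 1 is redder than replicate 2 in most rows.

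In bulk tissue, fewer cells of a type and less RNA per cell cannot be told apart, and the makeup of the tissue moved with stage. In order of age, the mean summed TPM of the 8 measured neuronal markers was 2385, 3256, 7016, 7412 and 8889. That of the 9 measured markers of cycling progenitors was 1502, 1070, 452, 270.0 and 129, so neuronal and progenitor RNA moved in opposite directions. Their part in the changes of the adhesion genes was not tested. Nor was that of the choroid plexus, meningeal and globin RNA, whose sums dropped between E14 and E15.5.

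The catenins split into members that fell and members that rose. Ctnnb1 was the most abundant catenin, at 557 and 597 TPM at E12.5, 547 and 500.5 at E14, 426 and 420.1 at E15.5, 310.3 and 291 at E17, and 253 and 283 at P0. Both libraries of E17 and P0 lay below all libraries of the 3 earlier stages. The change from E12.5 to P0 was -1.10 (SE 0.08, adjusted p = 2.15e-07, limma), a 2.15-fold lower mean TPM. About 15.1% of its annotated exonic bases are shared with other genes, Ulk4 on the opposite strand and Mir7090.

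The alpha-catenins, which tie the cadherin complex to actin, crossed over. Ctnna1, the broadly expressed alpha-catenin (chr18:35118859-35254779, plus strand, GRCm38), was at 71.3 and 77.7 TPM at E12.5, 63.8 and 57.2 at E14, 32.8 and 32.5 at E15.5, 22.02 and 19.7 at E17, and 12.7 and 13.9 at P0. Each stage lay below the one before with no overlap, and the fall over the span was the largest of any member (-2.40, SE 0.10, adjusted p = 1.21e-09, limma, 5.6-fold lower). Ctnna2, the neuronal alpha-catenin (chr6:76881637-77979699, minus strand), was at 32.2 and 33.1 TPM at E12.5, 45.7 and 40.3 at E14, 86.9 and 87.6 at E15.5, 80.6 and 72.4 at E17, and 73.8 and 81.6 at P0. It rose by 1.22 over the span (SE 0.09, adjusted p = 2.09e-07, limma), with its main step of 1.01 between E14 and E15.5. Ctnna1 was therefore the higher of the pair at E12.5 and E14 and Ctnna2 from E15.5 on. The largest step of Ctnna1 (-0.87) also lay between E14 and E15.5. Over that interval the choroid plexus, meningeal and globin sums dropped too, and their part in the crossing was not tested.

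Within a library the log2 ratio of Ctnna2 to Ctnna1, both as TPM + 1, was -1.12 and -1.21 at E12.5, -0.47 and -0.50 at E14, 1.38 and 1.40 at E15.5, 1.83 and 1.83 at E17, and 2.45 and 2.47 at P0. The ratio does not depend on how the libraries were scaled apart from the added 1. It stepped up at every stage with no overlap between neighbours, 3.63 in all. An exact permutation test of the stages over all 945 ways to form 5 pairs of libraries gave p = 0.00106, the smallest it can give, and 0.00159 after adjustment over the 3 ratios tested.

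The delta-catenins, which bind the part of the cadherin tail nearest the membrane, also moved apart, with Ctnnd2 above Ctnnd1 at every stage. Ctnnd1 was at 8.18 and 8.79 TPM at E12.5, 8.76 and 7.52 at E14, 7.44 and 7.38 at E15.5, 7.12 and 5.18 at E17, and 4.06 and 4.37 at P0. Its P0 libraries were the lowest of the 10, and it fell by 0.86 over the span (SE 0.14, adjusted p = 0.000127, limma). The value is uncertain, because 61.2% of its exonic bases lie in a readthrough model, Gm28635, on the same strand. Ctnnd2, the neural delta-catenin (chr15:30172593-31029341, plus strand), was at 27.8 and 29.2 TPM at E12.5, 35.6 and 32.5 at E14, 68.1 and 65.4 at E15.5, 87.3 and 70.2 at E17, and 84.8 and 85.2 at P0. It rose by 1.54 over the span (SE 0.10, adjusted p = 7.51e-08, limma), 2.98-fold. The log2 ratio of Ctnnd2 to Ctnnd1 went from a mean of 1.64 at E12.5 to 4.04 at P0 (exact permutation p = 0.00106, adjusted 0.00159).

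Ctnnbip1, which binds beta-catenin and keeps it from TCF factors, ranked next after Ctnnb1 at E12.5. It was at 436 and 451 TPM at E12.5, 489.6 and 508 at E14, 609 and 588 at E15.5, 681 and 652 at E17, and 759 and 704 at P0. It rose by 0.72 (SE 0.08, adjusted p = 3.7e-06, limma), and its mean was above that of Ctnnb1 from E15.5 on. Of its exonic bases 25.8% are shared with Gm13066 on the opposite strand.

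**Figure D2:**
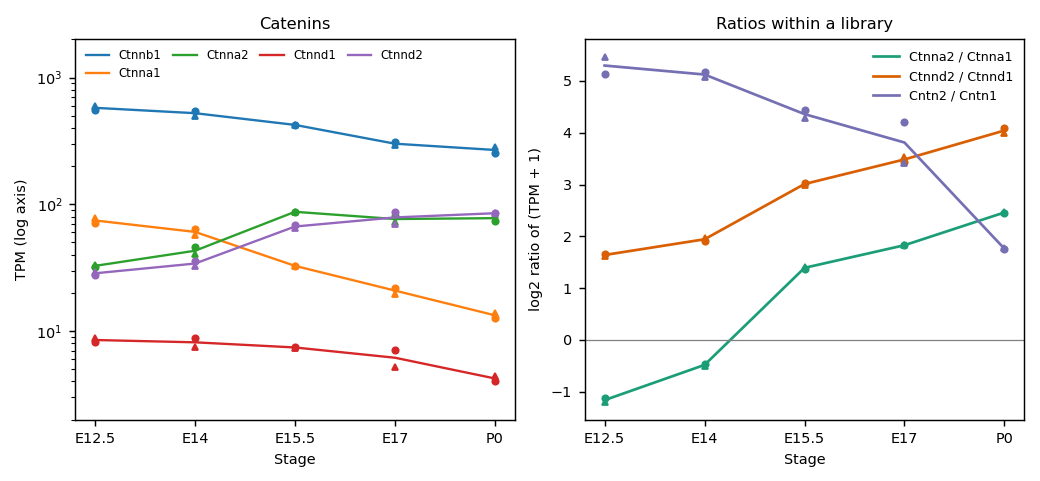
Left, TPM of the 5 catenins by stage on a log axis; right, the log2 ratios of Ctnna2 to Ctnna1, Ctnnd2 to Ctnnd1 and Cntn2 to Cntn1 within each library, with a grey line at 0. Circles are replicate 1, triangles replicate 2 and lines the mean of the pair; the Ctnna2 to Ctnna1 ratio crosses 0 between E14 and E15.5, and that of Cntn2 to Cntn1 goes down from 5.30 to 1.76.

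Among the cadherins, the most abundant was N-cadherin. Cdh2, which encodes this main cadherin of cortical progenitors and neurons, was at 122 and 122 TPM at E12.5, 96.5 and 104 at E14, 109.5 and 105 at E15.5, 147 and 120.1 at E17, and 74.97 and 77.1 at P0. Its lowest libraries were those of P0, and it fell by 0.67 over the span (SE 0.09, adjusted p = 4.29e-05, limma), and the lower level was reached after E17 (-0.80 from E17 to P0, adjusted p = 0.000112; -0.65 without E17 replicate 1). Its rise from E15.5 to E17 (0.31, adjusted p = 0.0357, limma) was not called without E17 replicate 1 (0.16, adjusted p = 0.14).

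Of the 7 cadherins, 4 rose from E12.5 to P0 and 1 fell, against 27.1% and 51.0% of all genes, and 6 fell from E17 to P0, against 28.8%. Of those 6, Cdh10 and Cdh11 were not called from E17 to P0 without E17 replicate 1 (adjusted p = 0.1 and 0.112, limma), without either P0 library, with array weights, with only the libraries compared, with quantile normalization or with length-corrected values (-0.09 and -0.14 in the last). The Cdh10 call was lost in 9 of the 10 fits with 1 library left out and with median-of-ratios scaling (adjusted p = 0.0526). The fall of Cdh8 from E17 to P0 (-0.46) was not called with array weights (adjusted p = 0.0927, limma) or with only the libraries compared (0.0711). Without P0 replicate 1 it was -0.41. Cdh8 and Cdh10, type II cadherins of neuronal subsets, rose 2.23-fold and 2.21-fold over the span. Cdh13, a cadherin held to the membrane by a lipid anchor, was at 26.7 and 28.7 TPM at E12.5, 43.7 and 44.1 at E14, 68.4 and 62.6 at E15.5, 76.8 and 59.3 at E17, and 46.8 and 43.1 at P0. It was high in the middle of the series (0.89 against both ends, SE 0.08, adjusted p = 9.42e-06, limma) and low at E12.5. Cdh11 rose by 0.28 over the span (adjusted p = 0.0454, limma), a marginal call that was lost in 8 of the 10 fits with 1 library left out (adjusted p = 0.24 without E12.5 replicate 2, 0.108 without P0 replicate 1), with no filter and with a pseudocount of 10 TPM. The span gave -0.41 for Cdh4 (adjusted p = 0.0511) and -0.20 for Cdh6 (adjusted p = 0.431), neither called by limma. Cdh4 was called lower with array weights (adjusted p = 0.000863), with only the libraries compared (0.000496), with a pseudocount of 0.1 TPM (0.048), without E17 replicate 1 (7.1e-05) or replicate 2 (6.75e-05) and with a replicate block (0.0458, limma).

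Protocadherins, which bind their own kind and have no site for beta-catenin, did not exceed 65.9 TPM in any library. Over the span 6 of 7 rose, with fold changes in mean TPM of 3.46 for Pcdh9, 3.37 for Pcdh8, 2.57 for Pcdh1, 2.13 for Pcdh17, 1.97 for Pcdh7 and 1.59 for Pcdh10. In Pcdh7, 21.1% of the exonic bases are shared with 4932441J04Rik on the opposite strand. All 7 rose from E15.5 to E17, 6 of them also without E17 replicate 1. Pcdh8 was at 4.59 and 4.88 TPM at E12.5, 7.10 and 6.31 at E14, 16.7 and 16.8 at E15.5, 36.5 and 21.7 at E17, and 17.9 and 14.01 at P0. The E17 pair spread widely, and both lay above all other libraries. Pcdh17 was at 9.56 and 9.29 TPM at E12.5 and at 9.06 and 8.55 at E15.5. It rose only by E17, to 23.02 and 17.5 TPM, and was at 18.8 and 21.3 TPM at P0.

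Pcdhgc3, the most abundant protocadherin and a gene of the gamma cluster, was at 32.6 and 35.6 TPM at E12.5, 30.2 and 33.4 at E14, 38.4 and 36.7 at E15.5, 65.9 and 43.6 at E17, and 27.5 and 31.6 at P0. The E12.5 and P0 libraries each overlapped those of E14, and the span gave -0.20 (adjusted p = 0.257, limma). The gamma genes share their last exons, 66.9% of the exonic bases of Pcdhgc3 in the annotation used here, so its value cannot be separated from that of its neighbours.

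**Figure D3:**
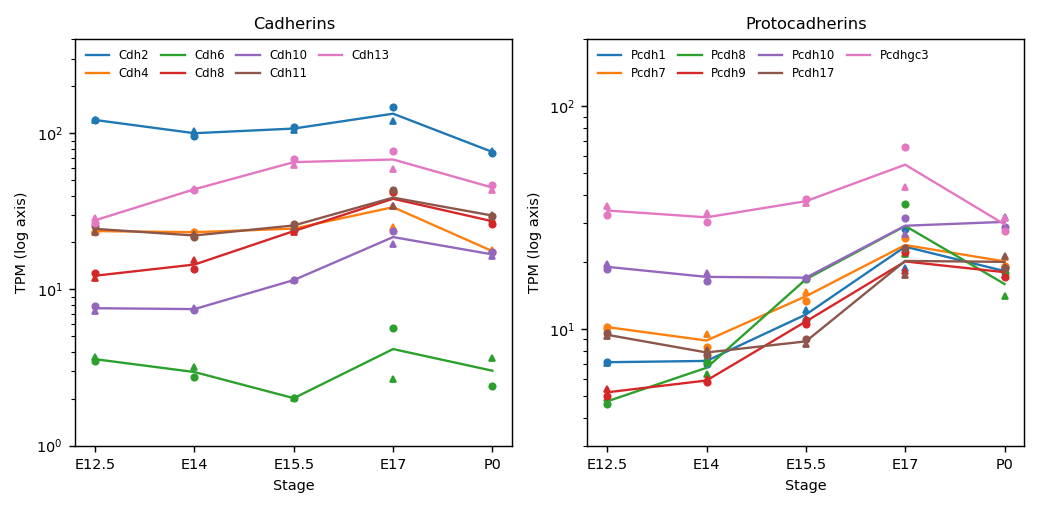
TPM of the 7 cadherins (left) and 7 protocadherins (right) by stage, on log axes, with circles for replicate 1, triangles for replicate 2 and lines for the mean. Cdh2 is lowest at P0, Cdh13 is highest at E15.5 and E17, and the protocadherin points go up between E15.5 and E17, where most pairs of replicates lie far apart.

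The IgLON genes, lipid-anchored immunoglobulin-domain proteins that pair with each other on neuronal surfaces, had the largest rise of any family: their summed TPM went from 68.1 at E12.5 to 605 at P0, 8.90-fold, and 4 of 4 rose. Opcml was at 17.4 and 15.4 TPM at E12.5, 30.8 and 35.7 at E14, 138 and 131 at E15.5, 232 and 209.6 at E17, and 232 and 238 at P0. Neighbouring stages did not overlap up to E17, and on the log2(TPM + 1) scale it had the largest rise of all members (3.76, SE 0.10, adjusted p = 3.37e-11, limma, 14.3-fold). Ntm, neurotrimin, was at 13.8 and 12.9 TPM at E12.5, 18.9 and 20.3 at E14, 61.4 and 60.5 at E15.5, 112 and 117 at E17, and 154.5 and 152 at P0. It stepped up at every stage without overlap (3.42 over the span, SE 0.08, adjusted p = 2.77e-11, limma, 11.5-fold).

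Lsamp, a marker of limbic circuits in later life, stayed low for longer. It was at 10.2 and 11.3 TPM at E12.5, 10.1 and 10.2 at E14, 44.1 and 43.9 at E15.5, 108 and 89.1 at E17, and 111 and 132 at P0. The libraries of E12.5 and E14 overlapped, and the step from E14 to E15.5 was 2.01 (SE 0.11, adjusted p = 1.59e-07, limma), the largest between neighbouring stages of any member on the log2(TPM + 1) scale. Negr1 began highest of the family and rose least, from 27.97 and 27.1 TPM at E12.5 to 94.1 and 98.3 at P0 (1.77, SE 0.09, adjusted p = 6e-09, limma). The order of the family reversed at its lower end: Lsamp was the lowest at E12.5 and Negr1 at P0.

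Opcml (chr9:27790775-28925410, plus strand) and Ntm (chr9:28994750-29963141, minus strand) lie next to each other and span 1134.6 and 968.4 kb. Long genes were common among the members: 11 of 44 (25.0%) span at least 500 kb, against 1.31% of the genes tested, and the median span was 230.0 kb against 29.2 kb.

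Among the contactins, lipid-anchored proteins of axons, Cntn1, Cntn4 and Cntn6 rose over the span and Cntn2 was not called. Cntn2, also known as TAG-1 and a marker of outgrowing axons, was at 169 and 192 TPM at E12.5, 247 and 253 at E14, 307 and 299 at E15.5, 496 and 306 at E17, and 156 and 149 at P0. The P0 libraries were the lowest of the 10 and E17 replicate 1 the highest. The fall from E17 to P0 was the largest of any member in that step (-1.35, SE 0.17, adjusted p = 0.000138, limma) and was -1.003 without E17 replicate 1, while the span was not called (-0.24, adjusted p = 0.204). The span was called lower without either E17 library (adjusted p = 0.0036 without replicate 1), with only the libraries compared (0.0112) and with array weights (0.0185, limma), and was 0.04 with median-of-ratios scaling. Cntn1, known from the paranodes of myelinated axons, was at 3.86 and 3.36 TPM at E12.5, 5.85 and 6.54 at E14, 13.3 and 14.4 at E15.5, 26.0 and 27.7 at E17, and 45.5 and 43.1 at P0. It stepped up at every stage without overlap (3.30, SE 0.11, adjusted p = 1.76e-10, limma, 12.3-fold) and from E17 to P0 had the largest rise among members with a mean of at least 10 TPM (0.70, adjusted p = 0.000582).

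The log2 ratio of Cntn2 to Cntn1 within a library went down from 5.13 and 5.47 at E12.5 to 1.75 and 1.77 at P0. The E17 pair spread most, 4.20 and 3.42, and overlapped no P0 library. The exact permutation p over the 5 stages was 0.00212, and 0.00212 after adjustment over 3 ratios.

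Cntn6 and Cntn4 were under 1 TPM before E17. Cntn6 was at 0.25 and 0.22 TPM at E12.5, 0.15 and 0.14 at E14, 0.74 and 0.69 at E15.5, 4.03 and 4.67 at E17, and 9.14 and 8.07 at P0, a ratio of means of 36.1 that rests on values well under 1 TPM at the start. Cntn4 went from 0.44 and 0.39 TPM at E12.5 to 3.19 and 3.09 at P0 (1.55, adjusted p = 6.23e-07, limma). Chl1 (chr6:103510586-103750211), Cntn6 (chr6:104492790-104863406) and Cntn4 (chr6:105677660-106699310) follow each other on the plus strand, and all 3 rose over the span.

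Cntnap2, a neurexin-like partner of Cntn2, fell over the span, while the other 3 contactin-group genes that were called rose. It was at 49.99 and 48.8 TPM at E12.5, 41.4 and 44.8 at E14, 19.2 and 19.5 at E15.5, 20.2 and 18.96 at E17, and 16.1 and 16.5 at P0. The step lay between E14 and E15.5 (-1.11, SE 0.09, adjusted p = 2.06e-06, limma), the interval over which the choroid plexus, meningeal and globin sums above also dropped, and their part in this result was not tested. Over the span it fell by 1.54 (adjusted p = 2.22e-08, limma). Its fall from E17 to P0 (-0.25, adjusted p = 0.0459) was 0.01 after length correction.

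The L1 family, which couples to ankyrin and spectrin in axons, peaked at E17. Its mean summed TPM, in order of age, was 121, 156, 249.9, 431 and 275. Chl1, close homolog of L1, was at 17.7 and 17.3 TPM at E12.5, 32.9 and 37.6 at E14, 92.3 and 90.5 at E15.5, 176 and 156 at E17, and 132 and 141 at P0. It rose 7.80-fold over the span (2.89, SE 0.09, adjusted p = 1.41e-10, limma), and its fall from E17 to P0 (-0.28, adjusted p = 0.0306) was -0.19 without E17 replicate 1 (adjusted p = 0.104) and 0.02 after length correction.

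In the other 3 genes of the family the E17 replicates lay further apart than in Chl1. Their falls to P0 were smaller without E17 replicate 1 but kept their sign. L1cam was at 128 and 76.7 TPM at E17 against 64.4 and 56.6 at P0, and fell by 0.71 (adjusted p = 0.00895, limma; -0.34, adjusted p = 0.00786, without E17 replicate 1). Nfasc, neurofascin of the axon initial segment, was at 123 and 65.3 TPM at E17 against 41.9 and 38.3 at P0, and fell by 1.14 (adjusted p = 0.00166, limma; -0.69, adjusted p = 2.37e-05, without that library). Nrcam was at 81.8 and 55.2 TPM at E17 against 37.6 and 37.5 at P0, and fell by 0.82 (adjusted p = 0.00131, limma; -0.54, adjusted p = 0.000167, without it). In all 3 the lower E17 library was still above both P0 libraries. L1cam and Nrcam were higher at P0 than at E12.5 (0.87 and 0.55), and Nfasc was not called (-0.19, adjusted p = 0.416).

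Ncam1, the neural cell adhesion molecule, was at 61.2 and 64.4 TPM at E12.5, 73.9 and 74.2 at E14, 188 and 196 at E15.5, 357 and 282 at E17, and 254 and 238 at P0. It rose by 1.95 over the span (SE 0.10, adjusted p = 7.45e-09, limma), most of it between E14 and E15.5 (1.36). Thy1, a lipid-anchored surface protein of maturing neurons, was at 1.67 and 2.67 TPM at E12.5, 5.15 and 3.57 at E14, 13.7 and 14.7 at E15.5, 24.9 and 20.8 at E17, and 24.5 and 21.6 at P0 (2.94, SE 0.18, adjusted p = 2.85e-08, limma, 10.6-fold). Ncam2 was lowest at E15.5, at 3.08 and 3.18 TPM, and was at 5.08 and 5.42 TPM at E12.5 and 5.01 and 6.02 at P0 (0.06, adjusted p = 0.711, not called). It was called higher over the span with median-of-ratios scaling (0.29, adjusted p = 0.0365, limma), quantile normalization (0.62, adjusted p = 0.000118) and length-corrected values (0.30, adjusted p = 0.00798).

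All 4 Cadm genes, synaptic adhesion molecules also called SynCAMs, rose over the span. Cadm2 (chr16:66655421-67620908, minus strand) was at 17.7 and 16.7 TPM at E12.5, 20.9 and 22.02 at E14, 50.9 and 52.7 at E15.5, 121 and 112 at E17, and 145 and 170.4 at P0. It rose 9.18-fold (3.12, SE 0.09, adjusted p = 1.02e-10, limma) and from E15.5 to E17 had the largest rise among members with a mean of at least 10 TPM (1.16, and 1.10 without E17 replicate 1). Cadm4 was the most abundant, at 214 and 219 TPM at E12.5 and 419 and 364 at P0, a rise of 0.85 (SE 0.09, adjusted p = 3.44e-06, limma). Cadm3 rose by 1.70 and Cadm1 by 0.31 (adjusted p = 7.22e-08 and 0.007, limma), and Cadm1 was not called without E12.5 replicate 2 (0.26, adjusted p = 0.0639).

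Of the Igsf genes, Igsf21, a synaptic adhesion protein, and Igsf3 rose 2.43-fold and 2.07-fold, and Igsf8, a partner of tetraspanins, fell. Igsf8 was at 98.2 and 102 TPM at E12.5, 77.96 and 72.6 at E14, 36.4 and 37.97 at E15.5, 58.4 and 39.9 at E17, and 35.8 and 28.4 at P0. The 4 earliest libraries lay above all others, and the span gave -1.62 (SE 0.15, adjusted p = 1.52e-06, limma), with -0.998 of it between E14 and E15.5. The choroid plexus, meningeal and globin sums dropped over the same interval, and their part in this fall was not tested.

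**Figure D4:**
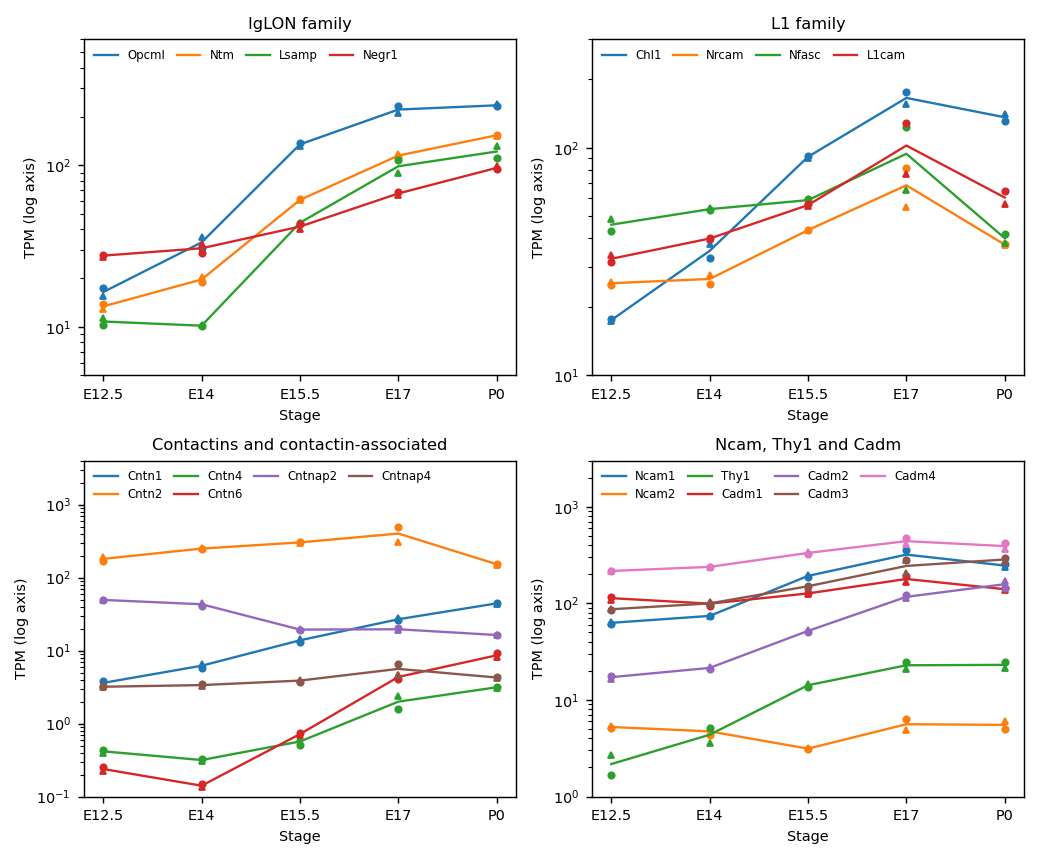
TPM by stage on log axes for the IgLON genes, the L1 family, the contactin group, and Ncam, Thy1 and Cadm genes, with circles for replicate 1, triangles for replicate 2 and lines for the mean. The IgLON lines go up to P0, those of the L1 family turn down after E17, Cntn2 and Cntn1 approach each other, and Cntn6 starts under 1 TPM.

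The highest stage differed among members. By mean TPM, 24 of 44 were highest at E17, 14 at P0, 5 at E12.5 (Cntnap2, Ctnna1, Ctnnb1, Ctnnd1 and Igsf8), 1 at E15.5 (Ctnna2) and 0 at E14. Without E17 replicate 1, 19 of the 24 were still highest at E17, and Cdh13, Cdh2, Cdh6, Ncam2 and Pcdh17 were not. Setting the mean of E15.5 and E17 against the mean of E12.5 and P0, 30 members were higher by this contrast, against 19.1% of all genes, and 4 lower, against 25.0%. A higher value does not need a peak in the middle, since a rise that slows later gives one too. Of the members called higher, Cadm2, Cadm3, Cntn1, Ctnnbip1, Ctnnd2, Lsamp, Ntm, Opcml and Thy1 had their highest mean at P0. The member median of that contrast was 0.45 and that of all genes -0.04. These medians were 0.34 and -0.07 without E17 replicate 1, and 0.49 and -0.01 without E17 replicate 2. Opcml had the largest value (1.44, SE 0.07, adjusted p = 1.04e-07, limma), while Negr1, with its steady rise, was at 0.03 (adjusted p = 0.733). The 4 lower members were Cntnap2, Igsf8, Ctnna1 and Ncam2.

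**Figure D5:**
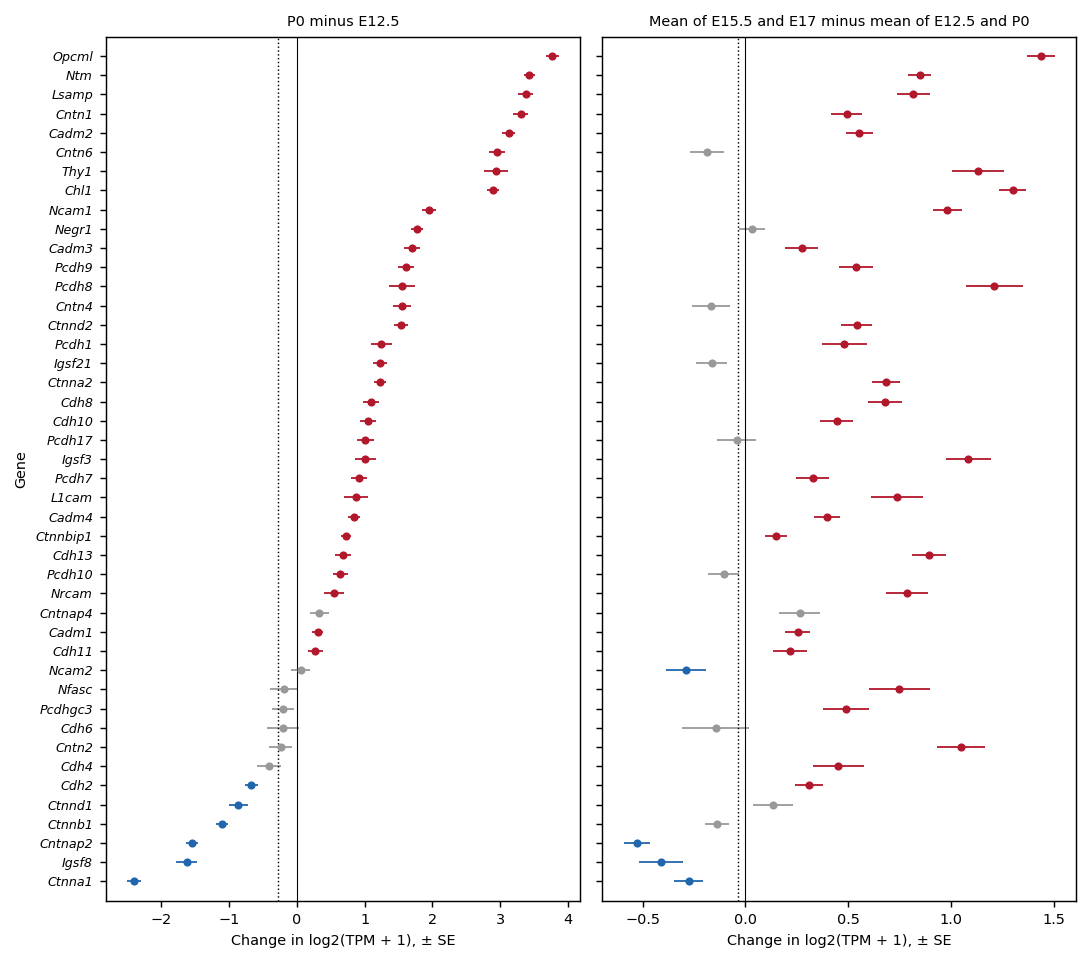
Change of each member in log2(TPM + 1) from E12.5 to P0 (left) and for the mean of E15.5 and E17 against the mean of E12.5 and P0 (right), with bars of 1 SE. Red points were called higher, blue called lower and grey not called by limma, and the dotted line is the median of all genes tested, -0.27 on the left; 31 members are red and 6 blue on the left, 30 red and 4 blue on the right.

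Genes that work with these members were read from 7 lists, chosen with earlier results of these data known, and 44 of their 64 genes could be tested. From E12.5 to P0, 23 of the 44 rose and 20 fell, against 27.1% and 51.0% of all genes tested. All 6 measured ankyrins and spectrins, the membrane skeleton under the L1 family, rose, among them Sptbn4 of the axon initial segment, from 0.43 ± 0.03 to 6.57 ± 0.77 TPM (SD, n = 2; 2.40 on the log2 scale). All 3 measured Ncam partners rose, among them Gap43 of growth cones, from 173 ± 6.0 to 1431 ± 81.1 TPM (3.04), Fyn and the polysialic acid enzyme St8sia2 (0.82).

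Junction adaptors were divided, 6 higher and 7 lower of 13. Pard3, a polarity protein of the apical junction, fell by 2.08, Plekha7 by 1.96 and Vcl, vinculin, which binds alpha-catenin, by 1.72, while Epb41l1 rose by 2.03 (all adjusted p under the threshold, limma). Of 6 Wnt regulators 2 rose and 3 fell, with Lef1, a DNA-binding partner of beta-catenin, going from 36.5 ± 0.71 to 2.45 ± 0.09 TPM (-3.44, SD, n = 2) and Apc, of the complex that degrades beta-catenin, rising by 1.01. Of 6 receptor phosphatases, several of which bind contactins, 2 rose and 4 fell, from Ptprd (0.90) to Ptprf (-1.85). Of the 7 other cadherin-superfamily genes, the calsyntenins Clstn1, Clstn2 and Clstn3 rose, Clstn2 by 3.08, and Fat1, Fat3, Fat4 and Dchs1 fell.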

How the data were processed

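RNA of neocortex lysates was sequenced in 10 libraries, 2 for each of 5 stages, from TruSeq stranded libraries of polyadenylated RNA, per the labels' protocols. The authors deposited TPM for 6147 genes, 1 column per library, per the file headers. STAR, Subread and the genome GRCm38.p5 are named in the submitters' processing notes, while the roles of the tools, the annotation and the lengths behind the values were not given in the sources used here. TPM do not keep the number of reads, so the depth of each library is unknown and no counting interval is given.

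The labels' stage set the groups, and column names matched library titles one to one. Duplicates are said to be biological, but nothing ties them to litters or dates, so p-values measure the spread between these libraries. Genes with a mean under 1 TPM (99 genes) were left out. The remaining 6048 were fitted as log2(TPM + 1) with limma 3.58.1 (R 4.3.3) using a mean for each stage, a variance trend and 5 residual degrees of freedom, and adjusted by the Benjamini-Hochberg method with a threshold of 0.05. A change on this scale understates that of low genes. Ratios of 2 genes were tested by exact permutation. Positions, lengths and overlaps came from GENCODE M21 for GRCm38, for 44 of 44 members, and may differ from the authors' annotation. Tables were made with pandas 2.3.3 and numpy 2.4.6 under Python 3.11.15, and plots with matplotlib 3.10.9.

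The members and all gene lists were chosen with earlier results of these data known. Named members were, for each pair of neighbouring stages, those with the largest rise and fall, for the whole span 5 of each, for the middle stages against both ends 1 of each, among called members with a mean of at least 10 TPM, and the most abundant of each family; the others are described with their family. Settings tried beside the main one were a pseudocount of 0.1 or 10 TPM, a minimum mean of 5 TPM or none, median-of-ratios scaling, quantile normalization, array weights, only the libraries compared, a replicate block, each library left out and, chosen after the data were seen, length-corrected values. Same-numbered libraries of 2 stages deviated together with correlations from -0.37 to 0.11 over 10 stage pairs, 1 of them over 0.1. The main fit used no pairing by number. The check cannot exclude a pairing, because replicate differences also followed gene length, positively at E17 and negatively at P0. Some marker genes of the tissue check are not reported here.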

Additional observations from a re-analysis of the deposited data

How the results depend on the processing

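Over 20 alternatives, the 169 called changes of members were refitted 3334 times: 3089 kept their call, 243 lost it and 2 reversed. The count of called members from E12.5 to E14 (7) was 26 with array weights, 14 with length-corrected values, 11 with median-of-ratios scaling, 26 with only the libraries compared, and 3 to 21 when single libraries were left out, 21 without either E17 library. From E15.5 to E17 (33) it was 10 with only the libraries compared and 23 to 41 with single libraries left out. From E17 to P0 (27) it was 15 with array weights, 17 with only the libraries compared and 16 to 34 with single libraries left out, 16 without P0 replicate 2. With a replicate block the counts were 7, 31, 33, 26, 38 and 32 in the order of the 4 steps, the span and the middle contrast, and 43 for the F test. The number of all genes called moved too. From E12.5 to E14 it was 528 in the main fit and 2411 with array weights. From E15.5 to E17 it was 1514, and 120 with only the libraries compared. From E17 to P0 it was 2525, and 1145 with array weights.

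Changes that reversed with length-corrected values were Chl1 (0.02) and Cntnap2 (0.01) from E17 to P0, Ctnnd1 from E12.5 to E14 (0.005), and over the span Cdh6 (0.069), Cntn2 (0.031), Nfasc (0.011) and Pcdhgc3 (0.05); of these, Chl1 and Cntnap2 had been called. With median-of-ratios scaling the span reversed for Cdh6 (0.006), Cntn2 (0.036), Nfasc (0.078) and Pcdhgc3 (0.066). With quantile normalization it reversed for Cdh6 (0.446, adjusted p = 0.0353, limma), Nfasc (0.045) and Pcdhgc3 (0.074), and Ctnnd1 from E14 to E15.5 was 0.202. Over the fits with 1 library left out, the change ranged from -0.155 to 0.041 for Ctnnd1 from E12.5 to E14 (highest without E14 replicate 2), from -0.053 to 0.099 for Ctnna2 from E17 to P0 (lowest without E17 replicate 2), from -0.039 to 0.273 for Ctnnd2 from E17 to P0 (lowest without E17 replicate 2), from -0.42 to 0.012 for Cdh6 over the span (highest without P0 replicate 1) and from -0.054 to 0.169 for Ncam2 over the span (lowest without P0 replicate 2); none of these 5 was called in the main analysis. The cause was not tested. Of all genes called over the span, 1641 were higher and 3087 lower as deposited, and 2293 and 2282 with median-of-ratios scaling. The Cntn2 to Cntn1 ratio fell by 2.22 with a pseudocount of 10 TPM (exact permutation, adjusted p = 0.0413). Cntnap4 over the span, not called (0.33, adjusted p = 0.0503, limma), was called higher in 9 alternatives, among them median-of-ratios scaling (0.55, adjusted p = 0.00111) and quantile normalization (0.93, adjusted p = 4.66e-06). With 2 libraries per stage and no read counts, calls of low genes near the threshold depend on the setting.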
